A study of Homo sapiens with 6 samples.

Results

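The 7 genes described here encode components of the extracellular matrix, an enzyme that builds its sugar chains, or receptors that hold cells to it. They are HAS2, LAMB1, COL27A1, EFEMP1, IGFBP7, ANTXR1 and ANTXR2, taken by name from a deposited table of 107 genes. The table lists genes that the study had selected for a difference between the same 2 groups compared here. The contrast that chose the genes is therefore given as a description, with no p-value.

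RNA-seq was performed on 3 EV samples and 3 S310F samples of H1975 cells, a line from a human lung adenocarcinoma whose EGFR mutation both groups share. EV cells carried the empty lentiviral vector. S310F cells were infected with lentivirus encoding HA-tagged HER2 S310F, that is, the ERBB2 protein with phenylalanine in place of an extracellular serine, in a vector named for a CMV promoter. Both lines were selected with puromycin, and whether a line is 1 clone or a pool is not given in the sources used here. The cells were grown in RPMI medium with fetal bovine serum, no drug treatment is labelled, and whether the 3 samples of a group were separate cultures is not stated, so the spread within a group may be technical. The sequenced groups did not include cells given wild-type HER2, so the mutation and the amount of ERBB2 cannot be told apart.

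The extracellular matrix is a meshwork of collagens, laminins, other glycoproteins and long sugar chains such as hyaluronan. Cells secrete it, bind it through receptors such as integrins, and take cues from it for adhesion, migration and survival. In the lung epithelium the laminin-rich basement membrane lies under the cells, while fibrillar collagens and hyaluronan fill the tissue around it.

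ERBB2, the transferred gene, counted 847, 857 and 760 in the EV samples, numbered 1 to 3, and 15074, 13753 and 16366 in the S310F samples, which matched the labels. Each value is a read count that the authors scaled by the sample's size factor, and 1 read was worth 0.919 to 1.09 across the 6 samples. The 107 genes held 18308 to 27629 reads per sample without ERBB2, and library totals were not given in the sources used here. None of the 10 epithelial and 10 fibroblast markers examined is in the table, so the cell type could not be checked on these values.

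HAS2, LAMB1, COL27A1 and ANTXR2 had higher values in S310F cells than in EV cells, and EFEMP1, IGFBP7 and ANTXR1 had lower ones. The means differed by factors from 2.02 for COL27A1 to 5.25 for HAS2. The 7 genes thus held both directions, and the 2 anthrax toxin receptors went in opposite directions. As the genes were chosen with results known, this mix describes the choice and not matrix genes in general. Values of the 2 groups did not overlap for 7 of 7 genes, 4 higher and 3 lower. Among all 107 listed genes that held for 98.1%, with 36.4% higher and 61.7% lower. By limma on log2(value + 1), 6 of 7 had both an adjusted p under 0.05 and a log2 difference over 1 in size, 3 higher and 3 lower. The same was true of 96.3% of the listed genes, with 34.6% higher and 61.7% lower. That balance changed with the scaling. With equal sums over the table without ERBB2 the listed genes called were 41 higher and 26 lower, and EFEMP1 was no longer called while COL27A1 was. Those sums run over the selected genes and were smaller in S310F samples, so equal sums had to raise S310F values relative to EV. Because every gene of the table was selected on these samples, nothing can be read from any of these counts. The median size of the log2 difference was 1.28 over the 7 genes and 1.37 over the 107. In RNA from whole cultures, a change in the share of cells that express a gene and a change per cell cannot be told apart.

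**Figure D1:**
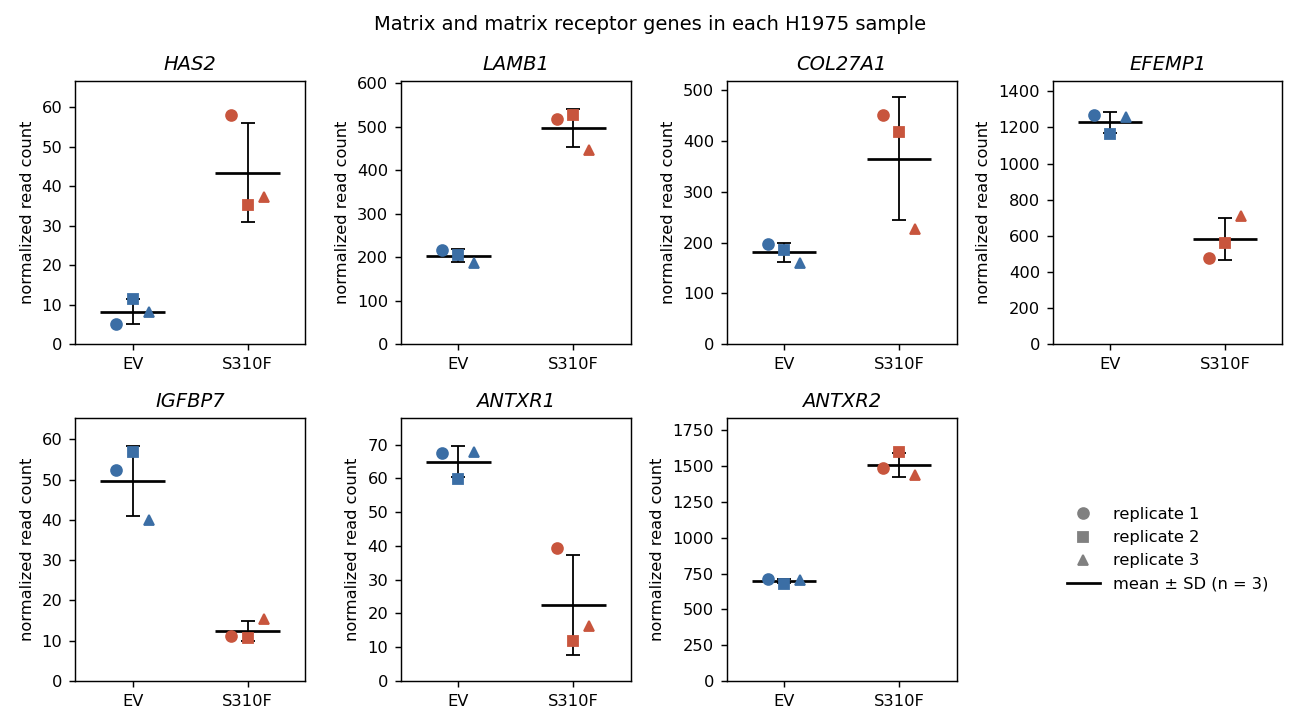
Normalized read count (y axis, from 0) of each of the 7 genes in the 3 EV and 3 S310F samples, 1 panel per gene, with point shapes for replicates and bars for mean ± SD (n = 3). The groups do not overlap in any panel, and COL27A1 in S310F replicate 3 (228) lies closest to the EV range.

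Windows of 250 bases upstream of an annotated start site are shown for the receptor pair that moved apart and for the 2 structural proteins with higher values. RefSeq promoter windows on GRCh38.p14 were examined for 4 of the 7 genes. None was examined for HAS2, EFEMP1 and IGFBP7, which does not show that the promoter set lacks them. The windows are chr2:69012894-69013143 (plus strand) for ANTXR1, chr4:80073473-80073722 (minus) for ANTXR2, chr7:108003162-108003411 (minus) for LAMB1 and chr9:114155287-114155536 (plus) for COL27A1, each read 5′ to 3′. Capitals mark matches on either strand to 4 motifs: the GC box GGGCGG, the AP-1 site TGACTCA, the TEAD core CATTCC and the TATA box TATAAA.
ANTXR1: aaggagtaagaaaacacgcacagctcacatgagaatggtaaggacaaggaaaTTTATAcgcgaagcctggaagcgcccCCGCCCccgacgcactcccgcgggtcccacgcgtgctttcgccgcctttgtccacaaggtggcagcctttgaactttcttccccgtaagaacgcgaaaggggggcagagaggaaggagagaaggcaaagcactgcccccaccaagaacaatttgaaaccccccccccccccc
ANTXR2: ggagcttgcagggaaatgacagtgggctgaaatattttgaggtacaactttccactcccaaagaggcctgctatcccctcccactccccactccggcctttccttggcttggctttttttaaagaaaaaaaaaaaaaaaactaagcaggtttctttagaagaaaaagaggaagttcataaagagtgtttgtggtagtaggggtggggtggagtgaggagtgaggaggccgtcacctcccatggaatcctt
LAMB1: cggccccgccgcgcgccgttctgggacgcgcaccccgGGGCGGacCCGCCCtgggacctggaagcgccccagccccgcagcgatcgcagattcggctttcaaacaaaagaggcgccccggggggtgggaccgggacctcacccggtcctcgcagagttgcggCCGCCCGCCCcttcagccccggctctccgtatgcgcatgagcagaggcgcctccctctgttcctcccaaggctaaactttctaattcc
COL27A1: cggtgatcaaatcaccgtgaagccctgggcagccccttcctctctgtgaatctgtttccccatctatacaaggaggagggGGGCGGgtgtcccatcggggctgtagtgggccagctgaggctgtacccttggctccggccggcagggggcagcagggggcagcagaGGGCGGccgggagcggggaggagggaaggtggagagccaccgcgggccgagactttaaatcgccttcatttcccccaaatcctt
The LAMB1 window had a GC content of 70.4% and held 4 GC boxes, 2 of which overlap each other. COL27A1 had 64.4% and 2 GC boxes, ANTXR1 had 58.4% with 1 GC box and 1 TATA match, and ANTXR2 had 46.4% with no match to any of the 4 motifs. The median over 35116 windows of the same length was 58.0%. The GC box letters were found in 42.6% of those windows and the TATA letters in 10.7%. The AP-1 letters, found in 4.20%, and the TEAD letters, found in 11.9%, were in none of the 4 windows shown. The ratio of observed to expected CpG pairs was 0.924 for LAMB1, 0.762 for ANTXR1, 0.510 for COL27A1 and 0.152 for ANTXR2, with a median of 0.558 over all windows. The 3 genes with higher values thus spanned both the most and the least GC-rich of the 4 windows. A second annotated start of ANTXR2, whose window has 51.6% GC, holds 1 GC box, and a second start of ANTXR1 adds no further match. Both ANTXR2 windows lie inside the span of the gene, 79901149 to 80125454 on the minus strand, and so are not upstream of its outermost start. The LAMB1 window also reaches into its gene, whose outermost start is at 108003255 on the minus strand. The 2 overlapping GC boxes of LAMB1 lie in that part.

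Hyaluronan was represented by HAS2, which encodes a plasma membrane enzyme that builds the chain and extrudes it from the cell. HAS2 (ENSG00000170961) lies on chromosome 8 from 121612116 to 121641390 on the minus strand of GRCh38. The EV replicates, in numbered order, had values of 5.03, 11.6 and 8.22, and the S310F replicates had 57.9, 35.2 and 37.2. The lowest S310F sample was above the highest EV sample, and S310F replicate 1 stood above the other two. Its log2 difference of 2.29 (standard error 0.32) was the fourth largest in size among the 107 genes. The EV mean rested on 25 reads in all and the S310F mean on 133. Corrected for depth, that is a ratio of 5.28, with a 95% interval of 3.43 to 8.46 from the exact binomial method that covers counting error only. With a pseudocount of 10 the log2 difference was 1.54. The antisense gene HAS2-AS1 overlaps 4.80% of the exon length of HAS2, and whether reads were counted by strand is not given in the sources used here.

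Among the structural proteins, LAMB1 encodes the beta 1 chain of laminins, the cross-shaped trimers of the basement membrane. LAMB1 (ENSG00000091136) lies on chromosome 7 from 107923799 to 108003255 on the minus strand. Its values were 218, 205 and 187 in EV replicates and 517, 526 and 446 in S310F replicates. The spread within each group was small beside the gap between them, with coefficients of variation of 7.55% and 8.75%. The log2 difference was 1.28 (standard error 0.21) and ranged from 1.22 to 1.36 when single samples were left out. DLD and AC005046.1 on the opposite strand overlap 3.57% of the exon length of LAMB1. LAMB1 was the only gene among the 26 laminins and other basement membrane glycoproteins examined that is in the table.

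COL27A1 encodes a chain of a fibrillar collagen best known from cartilage. COL27A1 (ENSG00000196739) is a plus-strand gene of chromosome 9, from 114155560 to 114312511. Its values were 197, 185 and 159 in EV replicates and 450, 418 and 228 in S310F replicates. S310F replicates 1 and 2 were close together, and S310F replicate 3 lay just above the EV range. The log2 difference was 0.96 (standard error 0.29), below the size limit of 1. It was 1.27 without S310F replicate 3 and 1.02 without EV replicate 1, both past the limit. Of the 7 genes it was the one just outside the limit, and EFEMP1, at 1.09 in size, was the one just inside.

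Of 44 collagen genes examined, 2 others are in the table and went opposite ways. COL6A3, which encodes a chain of the beaded-filament collagen VI, had means of 22.2 ± 5.57 in EV and 60.0 ± 17.3 in S310F cells (SD, n = 3 each), with a log2 difference of 1.39. COL12A1, which encodes a collagen that decorates the surface of fibrils, had by far more reads, with means of 5105 ± 211 and 2425 ± 418 (SD, n = 3 each) and a log2 difference of -1.09. Since a ratio of 2 genes within a sample does not depend on its size factor, COL27A1 was also set against COL12A1 per exon length. The ratio was 0.0360, 0.0322 and 0.0268 in EV replicates and 0.189, 0.166 and 0.0700 in S310F replicates. The smallest gap was at S310F replicate 3, and since one gene was listed as higher and the other as lower, the separation itself follows from how the table was made.

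EFEMP1 encodes fibulin-3, a glycoprotein with EGF-like repeats found in basement membranes and elastic tissue. EFEMP1 (ENSG00000115380) lies on chromosome 2 from 55865967 to 55924139 on the minus strand. Its values were 1267, 1162 and 1257 in EV replicates and 479, 558 and 709 in S310F replicates. S310F samples were all below EV samples but spread more widely, with coefficients of variation of 20.1% against 4.70% in EV cells. The log2 difference was -1.09 (standard error 0.23) and was -0.96, above the limit of -1, without S310F replicate 1. With each sample scaled to the same sum over the table, ERBB2 excepted, it was -0.65, which is also short of the limit. That scaling raises every S310F value relative to EV. EFEMP1 was the only one of 24 fibulin, fibrillin and elastic fibre genes examined that is in the table.

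IGFBP7 encodes a secreted member of the insulin-like growth factor binding protein family that binds IGFs weakly and associates with the matrix around vessels. IGFBP7 (ENSG00000163453) lies on chromosome 4 from 57030773 to 57110385 on the minus strand. Its values were 52.4, 56.8 and 40.1 in EV replicates and 11.0, 10.8 and 15.3 in S310F replicates. The EV mean was 4.02 times the S310F mean, the largest fall among the 7 genes by ratio of means. The log2 difference was -1.93 (standard error 0.24), from -2.08 to -1.82 when single samples were left out. It rested on 150 reads in EV and 37 in S310F cells, an EV to S310F ratio of 4.08 after correction for depth (95% exact binomial interval 2.83 to 6.02, counting error only). Genes on the opposite strand, POLR2B and IGFBP7-AS1, overlap 18.9% of its exon length, and their part in its reads was not tested. No other gene of the 21 IGF-binding and CCN family symbols examined is in the table.

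The receptors ANTXR1 and ANTXR2 are related single-pass membrane proteins with an extracellular von Willebrand factor A domain that binds matrix proteins. Both are also entry receptors of anthrax toxin, from which they take their names. ANTXR1 is known to bind collagens and was first described in tumor endothelium, and ANTXR2 is known to bind laminin and collagen IV.

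ANTXR2 (ENSG00000163297) lies on chromosome 4 from 79901149 to 80125454 on the minus strand. Its values were 709, 678 and 706 in EV replicates and 1487, 1598 and 1436 in S310F replicates. It had the tightest replicates of the 7 genes, with coefficients of variation of 2.42% and 5.52%. The log2 difference was 1.11 (standard error 0.20) and moved only from 1.07 to 1.14 when single samples were left out.

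ANTXR1 (ENSG00000169604) is a plus-strand gene of chromosome 2, from 69013178 to 69249327. Its values were 67.5, 59.7 and 67.8 in EV replicates and 39.5, 11.7 and 16.4 in S310F replicates. EV samples were close together, and S310F replicate 1 lay about midway between the EV samples and the other S310F samples. The log2 difference was -1.66 (standard error 0.39), the largest standard error of the 7 genes. It was -2.15 without S310F replicate 1 and -1.31 without S310F replicate 2. The reads numbered 195 in EV and 70 in S310F cells.

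Within each sample, ANTXR2 outnumbered ANTXR1 per exon length in both groups. The ratio was 8.72, 9.42 and 8.64 in EV replicates and 31.2, 113 and 72.6 in S310F replicates. Of the pair, ANTXR2 made up 89.9 ± 0.428% in EV cells, and its share in S310F cells was 98.2 ± 1.17% (SD, n = 3 each). The sum of the pair per kilobase of exon was 78.7 ± 2.26 in EV and 156 ± 7.95 in S310F cells (SD, n = 3 each). ANTXR2 was listed as higher and ANTXR1 as lower, and ANTXR2 already made up most of the pair in EV cells. The directions of these shifts therefore follow from how the table was made, and only the sizes are described. The S310F ratios rested on 43, 12 and 15 ANTXR1 reads in replicates 1 to 3. No stretch of at least 100 bases at 95% identity joins the longest transcripts of ANTXR1 or ANTXR2 to any other gene, the partner included.

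**Figure D2:**
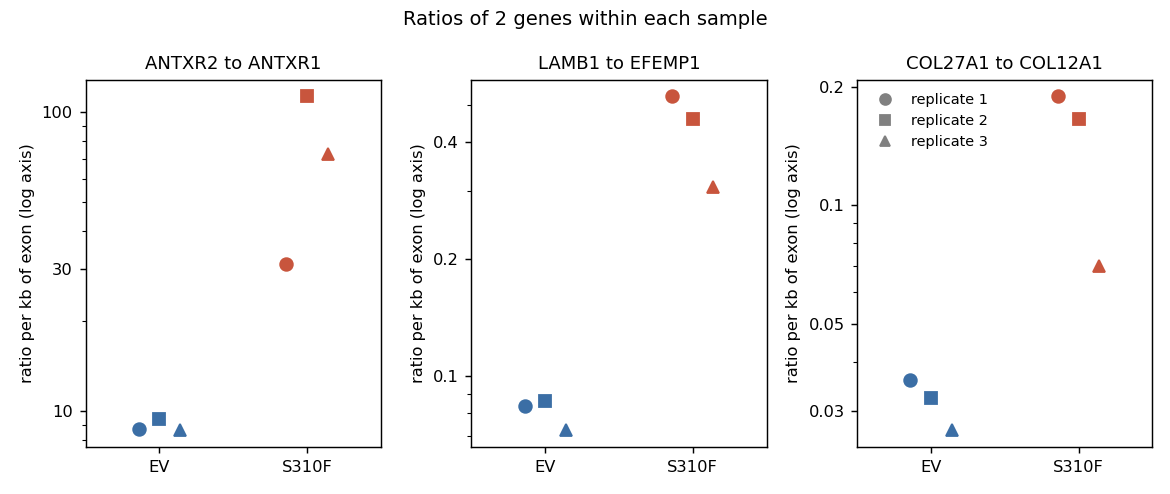
Ratio of 2 genes per kilobase of exon within each sample (log y axis), for ANTXR2 to ANTXR1, LAMB1 to EFEMP1 and COL27A1 to COL12A1, with 1 point per sample. Each pair sets a gene listed as higher over a gene listed as lower, so the groups had to separate, and the panels show sizes, from 8.64 to 9.42 against 31.2 to 113 for the receptors.

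Levels of different genes were compared per kilobase of exon. In EV cells EFEMP1 was highest at 310 ± 14.6, followed by ANTXR2 at 70.7 ± 1.71, IGFBP7 at 25.8 ± 4.50 and LAMB1 at 25.0 ± 1.89 (SD, n = 3 each). COL27A1 at 12.9 ± 1.39, ANTXR1 at 7.94 ± 0.558 and HAS2 at 1.97 ± 0.779 came last (SD, n = 3 each). The ranges of IGFBP7 and LAMB1 overlapped, and the other neighbours in this order did not. In S310F cells the order was ANTXR2 at 153 ± 8.43, EFEMP1 at 147 ± 29.5, LAMB1 at 61.0 ± 5.34 and COL27A1 at 26.1 ± 8.61 (SD, n = 3 each). HAS2 at 10.4 ± 3.00, IGFBP7 at 6.41 ± 1.33 and ANTXR1 at 2.76 ± 1.82 followed (SD, n = 3 each). There ANTXR2 and EFEMP1 overlapped, and the other neighbours did not. Per kilobase of exon, LAMB1 was 0.0836, 0.0860 and 0.0724 times EFEMP1 in EV replicates and 0.525, 0.459 and 0.306 times in S310F replicates. HAS2 went from the last place to above IGFBP7 and ANTXR1, yet its level remained below that of COL27A1 in both groups.

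**Figure D3:**
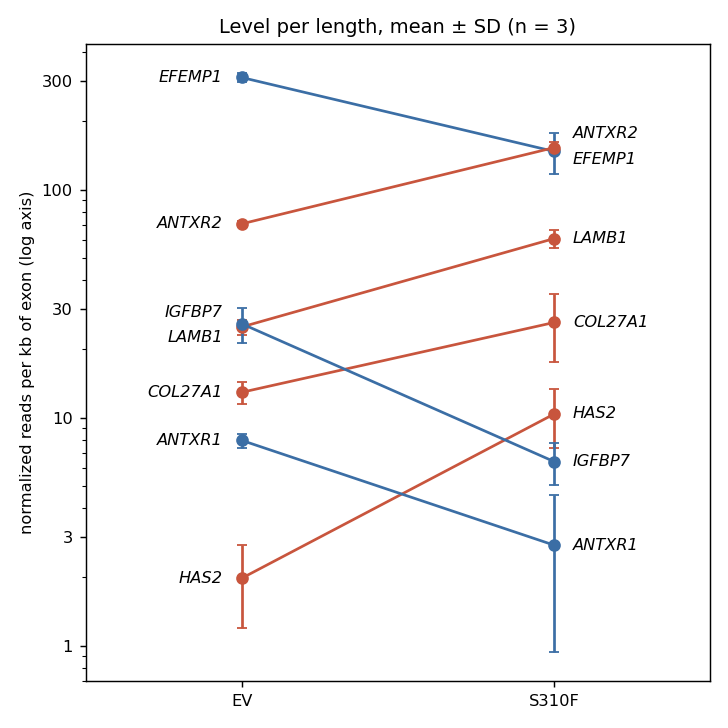
Normalized reads per kilobase of exon (log y axis) of the 7 genes in EV and S310F cells, as mean ± SD (n = 3), with red lines for higher and blue lines for lower means in S310F cells. EFEMP1 (310 to 147) and ANTXR2 (70.7 to 153) meet, and HAS2 (1.97 to 10.4) crosses IGFBP7 and ANTXR1.

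Replicates were compared with the spread that counting alone would give, where a ratio of 1 means no more than counting noise. In EV cells the median ratio was 1.30 over the 7 genes and 1.50 over the 107. In S310F cells it was 4.51 and 4.41. The S310F ratios were 37.5 for COL27A1, 23.3 for EFEMP1 and 10.1 for ANTXR1, the largest of the 7. This ratio grows with the number of reads, so it does not rank the genes by agreement of replicates: EFEMP1 and IGFBP7 had close coefficients of variation in S310F cells, 20.1% and 20.7%. For IGFBP7 the S310F ratio was 0.512, and for LAMB1, HAS2 and ANTXR2 it lay between 3.61 and 4.51. S310F replicate 3 was the one nearest to the EV mean for LAMB1, COL27A1, EFEMP1, IGFBP7 and ANTXR2. That is 5 of 7 genes, beside 85 of all 107 (79.4%), so this position of replicate 3 was shared with the table at large. The exceptions were HAS2, where replicate 2 was nearest, and ANTXR1, where replicate 1 was.

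**Figure D4:**
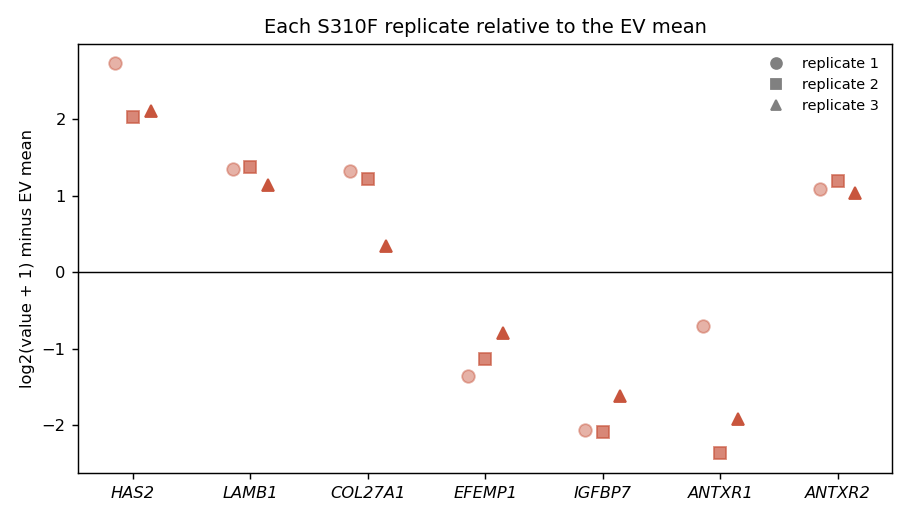
log2(value + 1) of each S310F replicate minus the EV mean (y axis) for the 7 genes, with shapes for replicates. Replicate 3 lies nearest to 0 for 5 genes, with COL27A1 at 0.34, and replicate 1 does so for ANTXR1 at -0.70.

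A wider list of 331 symbols for matrix proteins, matrix receptors, integrins and matrix proteases, older symbols included, had 14 members in the table. Of these, 6 were higher and 8 lower in S310F cells, beside 41 higher and 66 lower among all 107, and 13 of 14 passed both limits, beside 96.3% of all 107, with COL27A1 the exception. Their median log2 difference was -1.09, beside -1.12 over all 107. Beside the 7 genes and the 2 collagens, ITGB4, the partner of integrin alpha 6 in hemidesmosomes and a receptor of laminin, was the single integrin gene of 26 examined in the table. Its values were 79.6, 90.6 and 88.4 in EV and 29.4, 29.3 and 46.0 in S310F replicates, a log2 difference of -1.31. Among proteases and their inhibitors, MMP24, MMP28 and MMP3 were lower, with log2 differences of -1.69, -1.25 and -1.30. SERPINB2, an inhibitor of plasminogen activators, was higher at 1.41. The protease inhibitor gene TFPI2 and the trypsin gene PRSS3, which are not on the list and of which TFPI2 was chosen after its values were seen, were also higher, at 1.87 and 1.10. Peptidase genes off the list were not counted as a set. Among them CPE was lower at -1.59 and CPM was higher at 0.997. No proteoglycan of 32 and no collagen processing gene of 21 is in the table. Genes outside the table were not analysed here.

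**Figure D5:**
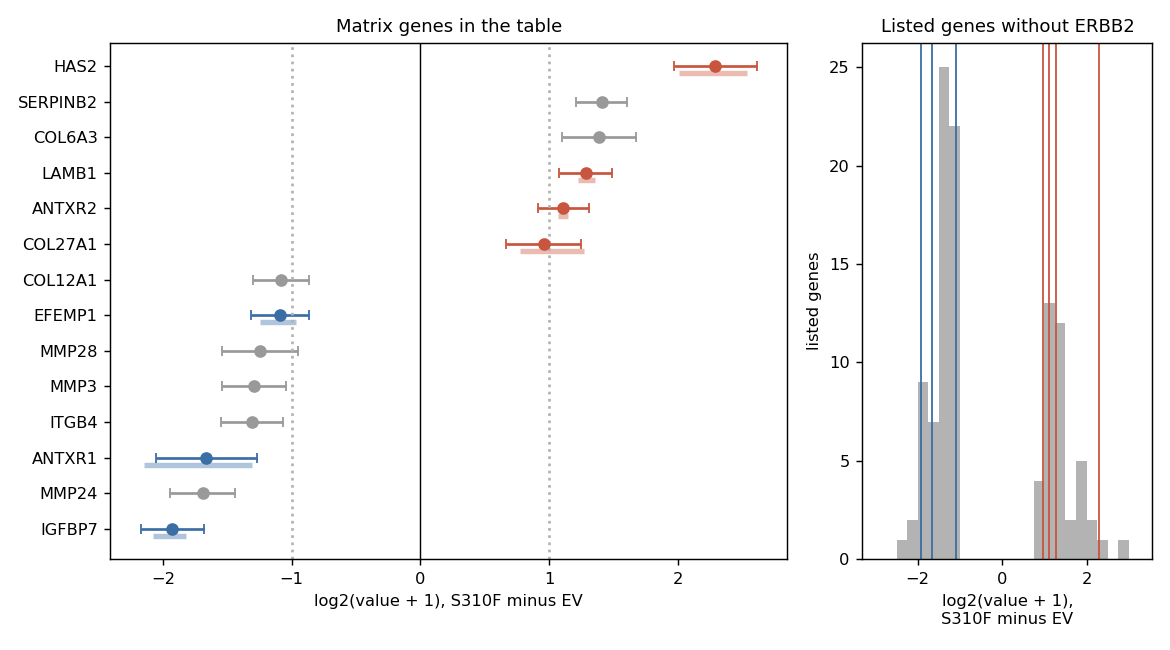
Left, log2(value + 1) of S310F minus EV for the 14 matrix genes in the table, with bars for the standard error, thick lines (the 7 genes) for the range with each sample left out, and gray for genes outside the 7. Right, all listed genes without ERBB2 (y axis, number of genes), with lines at the 7 genes, which lie from -1.93 to 2.29 on both sides of an empty middle.

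For each gene, the listed gene most like it was the one with the smallest root mean square difference in log2(value + 1), centred on each gene's mean over the 6 samples. The profile of EFEMP1 was closest to that of the collagen gene COL12A1 (0.0708), that of ANTXR2 to the trypsin gene PRSS3 (0.0876) and that of LAMB1 to ARL14EPL (0.0995). COL27A1 was closest to LRRC8C, a subunit gene of volume-regulated anion channels (0.105), and IGFBP7 to the serum amyloid gene SAA4 (0.147). ANTXR1 was closest to the junction gene CGNL1 (0.294) and HAS2 to STEAP1B (0.303). As all 107 genes were selected on the difference between the groups, each likeness includes that shared difference.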

How the data were processed

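RNA-seq of 3 EV and 3 S310F samples of H1975 cells was sequenced by Novogene. Aligner, counter, strand setting and normalization tool are not given in the sources used here, and the submitters' processing notes name GRCh38. The authors deposited 1 table of 107 genes, whose signal values they made by dividing each gene's read count by a size factor of its sample. In every sample, each of the 107 values (100%) came to whole reads within a tolerance of 0.05 reads. The authors' group means, log2 fold changes, p-values and adjusted p-values in the table were not used. Gene coordinates and exon lengths were identical to GENCODE release 29 for 107 of 107 genes.

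Values were analyzed as log2(value + 1) with limma 3.58.1 in R 4.3.3 over all 107 genes, with moderated variances and Benjamini-Hochberg adjustment. A call required both an adjusted p under 0.05 and a size of at least 1 on the log2 scale. Simulated data were used to test the fit. Shared transcript sequence was searched with BLAST 2.17.0. Python 3.11.15, numpy 2.4.6, pandas 2.3.3, scipy 1.17.1 and matplotlib 3.10.9 were used for the rest. The 7 genes, the lists and the motifs were chosen with earlier results of these data known. The text names ERBB2, the 7 genes, each gene of the matrix list that is in the table, and the most alike gene of each of the 7. TFPI2, CPE and CPM are named as well and were chosen after their values were seen. Alternatives were other pseudocounts, filters on the mean value, a variance trend, a replicate block, a rescaling and leaving out each sample.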

Additional observations from a re-analysis of the deposited data

How the results depend on the processing

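Every alternative kept the direction of each of the 7 genes that it retained, and of all listed genes. Scaling each sample to the same sum over the table, ERBB2 excepted, raised the median log2 difference by 0.43. That rise was built in, because the sums run over the selected genes and were smaller in S310F samples. The rescaling took COL27A1 to 1.40, past the limit, and EFEMP1 to -0.65, short of it. It gave 41 genes higher and 26 lower, in place of 37 and 66, so higher genes made up 61.2% of the calls instead of 35.9%. A filter on a mean value of 50 kept 75 genes, 4 of the 7 among them, and called 24 genes higher and 3 of the 7. HAS2, IGFBP7 and ANTXR1 are below that mean. Leaving out each sample gave log2 differences from 0.78 to 1.27 for COL27A1 and from -1.25 to -0.96 for EFEMP1, and 5 to 7 of the 7 genes called. Samples of the same replicate number showed little shared deviation (correlations over 107 genes of 0.06, 0.02 and -0.02), beside -0.23 to 0.23 for other numbers. With 3 samples per group, that cannot show whether the samples were paired. With the replicate number as a block, 37 genes were higher, 66 lower and 6 of the 7 called. A mean-variance trend, a filter at 10 and pseudocounts of 0.1 and 10 changed no call among the 7. A planned count test on recovered reads was not run, because too few low values are in a table of this size. Library totals were unknown, and the EV level of HAS2 rested on 25 reads over 3 samples, which limits its precision.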
